A study of Mus musculus with 2 samples.

Results

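The 9 transcription factor genes Sim1, Otp, Nkx2-1, Six6, Tcf7l2, Gbx2, Lhx9, Rora and Meis2, which mark regions of the hypothalamus, thalamus and telencephalon, were followed in RNA from mouse optic nerve and optic tract. All probe sets whose platform gene symbol is one of these names were taken, which gave 9 of the 18193 genes and 28 of the 45037 non-control probe sets on the array. CD47 KO mice (CD47 null) at 12 to 15 weeks of age were compared with wild-type (WT) mice at 13 to 15 weeks of age. All mice were male, and the strain is not stated in the sources used here. For each genotype RNA from several mice was pooled and measured on 1 array, so the genotypes cannot be tested against each other, and how far single mice differ is not known. The description of the series and the methods give 4 CD47 KO and 5 WT mice, whereas the labelling protocol gives 5 CD47 KO and 4 WT mice. All values are MAS5 signals per probe set in arbitrary linear units, and a signal under 106.4, the 50th percentile of both arrays together, was treated as under the floor. Below, a probe set is called measured when it lies above the floor in at least 1 array.

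Such factors bind DNA and, during development, give the neurons of a brain region their identity. Many stay on in the adult in limited groups of neurons. The optic nerve and tract are bundles of axons from the retina with glial cells around them, and they hold few neuronal cell bodies of their own. The optic chiasm lies against the base of the hypothalamus, and the optic tract runs along the thalamus to the lateral geniculate nucleus. In bulk RNA, fewer cells of a type and less RNA per cell cannot be told apart.

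The pools carried the RNA of myelinated white matter. The 7 oligodendrocyte and myelin markers on the array were all above the floor, and their brightest probe sets summed to 212254 in CD47 KO and 193796 in WT, with a median log2 ratio of CD47 KO over WT of 0.11. The 8 astrocyte markers summed to 133577 in CD47 KO and 123207 in WT, with a median of 0.08. Neuron markers were present in both pools, with lower signals in the CD47 KO pool. Of the 16 neuron markers on the array 15 were measured, their sum was 16443 in CD47 KO and 26219 in WT, and the median log2 ratio was -0.81. Slc17a7, the vesicular glutamate transporter of cortical neurons, did not reach the floor in either array. The brightest of the 5 probe sets of the targeted gene, Cd47, had a signal of 1346 in CD47 KO and 3928 in WT; its place relative to the deleted part was not examined. The part of the lower neuronal RNA in the ratios given below was not tested.

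Of the 28 probe sets, 16 were measured, 15 of them above the floor in both arrays, and 12 were under the floor in both. Among the 16, 13 had a log2 ratio below 0 and 3 above 0, beside 51.7% below 0 among all 23846 measured probe sets. No probe set of these genes was over 2-fold higher, beside 1.06% of all measured probe sets, and 2 were over 2-fold lower, 1 each of Sim1 and Meis2, beside 0.751% of all. Both of these lie in the second dimmest of 4 equal brightness groups, in which 1.19% of the probe sets were over 2-fold lower. Probe sets of 1 gene share their source, and the 16 represent 7 genes, 7 of them being Rora alone. The spread of the measurement can be read only where a gene has several probe sets. Their log2 ratios lay apart with an SD of 0.36 over 11653 pairs from 4740 genes, and by under 0.74 in 95% of pairs. Differences among animals and among arrays are not in this figure.

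**Figure D1:**
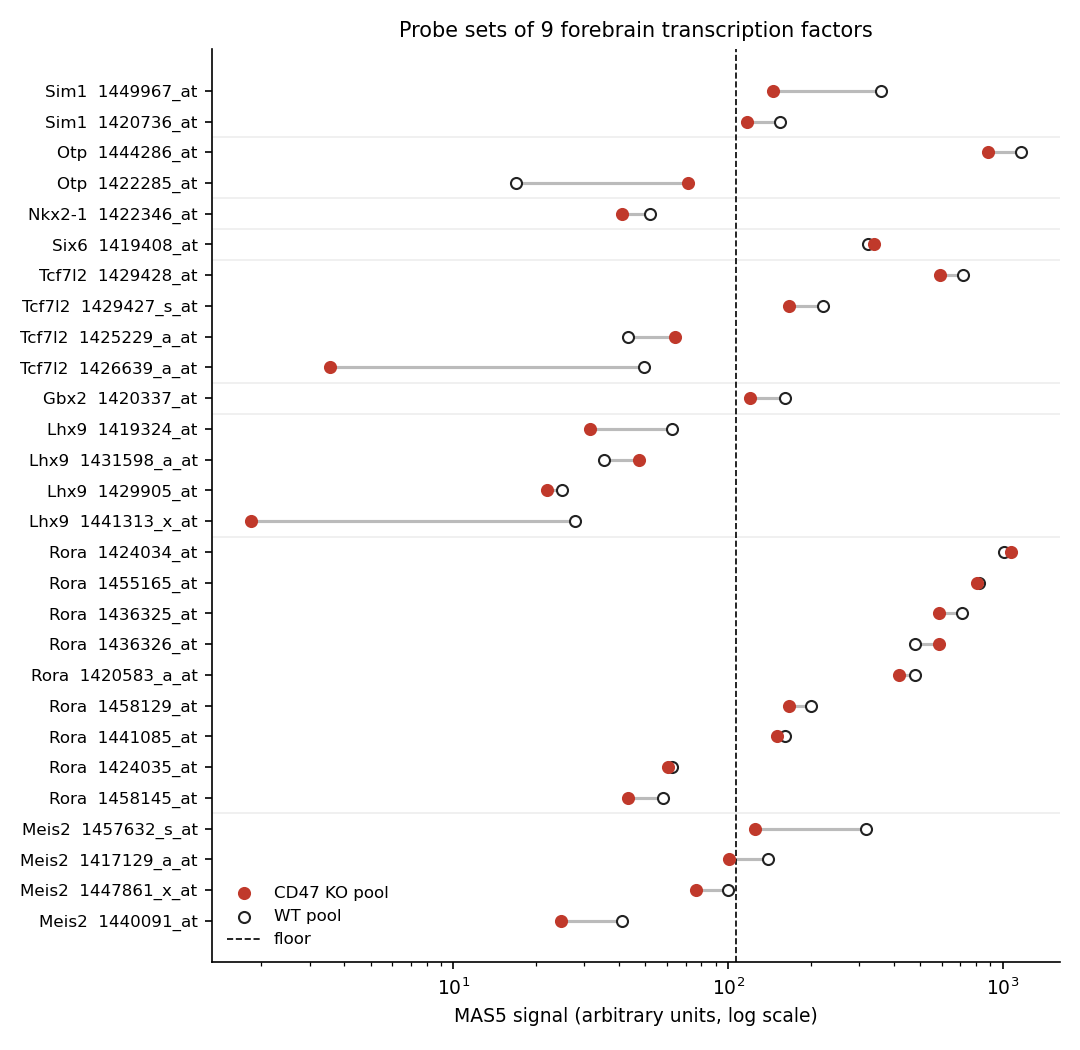
MAS5 signal (horizontal, log scale, arbitrary units) of the 28 probe sets of the 9 genes, with 1 point for the CD47 KO pool (red) and 1 for the WT pool (open black); a dashed line stands at the floor of 106.4. The CD47 KO point lies left of the WT point for both probe sets of Sim1, for all 4 of Meis2 and for the single one of Gbx2, whereas the points of Six6 and of most Rora probe sets lie close together; Nkx2-1 and Lhx9 stay left of the floor.

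By its brightest probe set, each of 7 genes was measured: Sim1, Otp, Six6, Tcf7l2, Gbx2, Rora and Meis2. Their log2 ratios had a median of -0.40, with 5 below 0 and 2 above 0, beside a median of -0.02 and 53.2% below 0 among all 12473 measured genes. Of these 7 genes 2 were over 2-fold lower, beside 0.818% of all measured genes, and 0 were over 2-fold higher, beside 1.21%. Read instead from medians over measured probe sets, Sim1 had a log2 ratio of -0.85 and Meis2 -0.87, both under 2-fold lower. The median of Meis2 includes a bound, and Rora was then at -0.09, below 0. Nkx2-1 and Lhx9 were not measured.

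Among the factors of the hypothalamus, Sim1 had the largest difference. Sim1 is a bHLH-PAS protein without which the neurons of the paraventricular and supraoptic nuclei are not made, and mice with a single working copy become obese. Its brighter probe set, 1449967_at, had a signal of 145.1 in CD47 KO and 359.4 in WT, which is 2.48-fold lower (log2 ratio -1.31). The dimmer one, 1420736_at, had 117.4 in CD47 KO and 154.3 in WT, 1.31-fold lower (log2 ratio -0.39). Both were lower in the CD47 KO pool, but their log2 ratios lay 0.91 apart, further than 95% of the pairs of probe sets of 1 gene. The CD47 KO signals were only 1.36 and 1.10 times the floor. Raising the floor to the 60th percentile, 187.0, puts the CD47 KO signal of the brighter probe set under it, and its log2 ratio is then a bound of -0.94.

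Otp, a homeodomain protein needed for the same neurosecretory neurons, was measured by 1 of its 2 probe sets. That probe set, 1444286_at, had 883.9 in CD47 KO and 1167 in WT, 1.32-fold lower (log2 ratio -0.40). The other, 1422285_at, was under the floor in both arrays, with 71.3 in CD47 KO and 16.9 in WT. The measured probe set was well above the floor in both pools, and its log2 ratio was close to that of the dimmer probe set of Sim1.

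Six6, a homeodomain protein of the retina, the pituitary and the suprachiasmatic nucleus, which lies just above the optic chiasm, was the factor of the hypothalamus with a ratio above 0. Its single probe set had 339.7 in CD47 KO and 321.9 in WT, 1.06-fold higher (log2 ratio 0.08). Nkx2-1, a homeodomain protein that patterns the ventral forebrain and is also known from thyroid and lung, had 41.0 in CD47 KO and 51.8 in WT. Both values are under the floor, so that no fold is given for Nkx2-1. Within the hypothalamus the 3 measured factors ranged from -1.31 for Sim1 through -0.40 for Otp to 0.08 for Six6 on the log2 scale by their brightest probe sets. By its other probe set, with -0.39, Sim1 lay beside Otp.

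Among the factors of the thalamus no probe set above the floor differed by over 2-fold. Tcf7l2 binds DNA through an HMG box and acts with β-catenin in the Wnt pathway; it is known from neurons of the thalamus and habenula and, outside neurons, from newly formed oligodendrocytes. Its probe set 1429428_at had 592.2 in CD47 KO and 713.9 in WT, 1.21-fold lower (log2 ratio -0.27). Its second probe set, 1429427_s_at, had 166.4 in CD47 KO and 221.5 in WT, 1.33-fold lower (log2 ratio -0.41). Both measured probe sets of Tcf7l2 were lower in CD47 KO and lay 0.14 apart, but the second is marked for shared sequence, and without it Tcf7l2 rests on the 1 probe set at -0.27. Its other 2 probe sets were under the floor and went opposite ways, with 63.9 and 3.56 in CD47 KO against 43.2 and 49.4 in WT.

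Gbx2, a homeodomain protein of developing thalamic neurons, had 120.2 in CD47 KO and 161.7 in WT on its single probe set, 1.35-fold lower (log2 ratio -0.43). Its CD47 KO signal was 1.13 times the floor, and Gbx2 was no longer measured when the floor was raised to the 60th percentile. Lhx9, a LIM-homeodomain protein of the thalamus and hypothalamus, had 4 probe sets and all were under the floor. They ranged from 1.83 to 47.3 in CD47 KO and from 24.9 to 62.7 in WT, and 1 of the 4 was higher in the CD47 KO pool.

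Rora is a nuclear receptor of thalamic relay neurons and cerebellar Purkinje cells that also takes part in the circadian clock, and it is found in glial cells too. It had 9 probe sets, of which 7 were above the floor in both arrays and 2 under it in both. The brightest, 1424034_at, had 1069 in CD47 KO and 1010 in WT, 1.06-fold higher (log2 ratio 0.08). The lowest ratio, that of 1436325_at, came from 585.7 in CD47 KO and 708.4 in WT (log2 ratio -0.27), and the highest, that of 1436326_at, from 583.2 in CD47 KO and 477.8 in WT (log2 ratio 0.29). With 5 of the 7 measured probe sets below 0, a median of -0.09 and a span of 0.56, the probe sets of Rora lay on both sides of 0.

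Meis2, a TALE homeodomain protein of the striatum and of neurons derived from the ganglionic eminences, was the gene of the telencephalon. Its brightest probe set, 1457632_s_at, had 125.6 in CD47 KO and 317.2 in WT, 2.53-fold lower (log2 ratio -1.34). The next, 1417129_a_at, had 100.4 in CD47 KO, under the floor, and 140.2 in WT, so that it was at least 1.32-fold lower. The 2 others were under the floor in both arrays, with 76.3 and 24.7 in CD47 KO against 99.7 and 41.1 in WT. All 4 signals of Meis2 as deposited were lower in the CD47 KO pool. With the second as a bound, the log2 ratios of its 2 measured probe sets lay 0.94 apart, whereas 95% of pairs lay under 0.74 apart. As deposited these 2 ratios were -1.34 and -0.48. The brightest probe set bears the suffix _s_at, which marks shared sequence, and without such probe sets Meis2 had only the bound of 1.32-fold. Raising the floor to the 60th percentile left a bound of -0.76 for the log2 ratio of the brightest probe set.

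**Figure D2:**
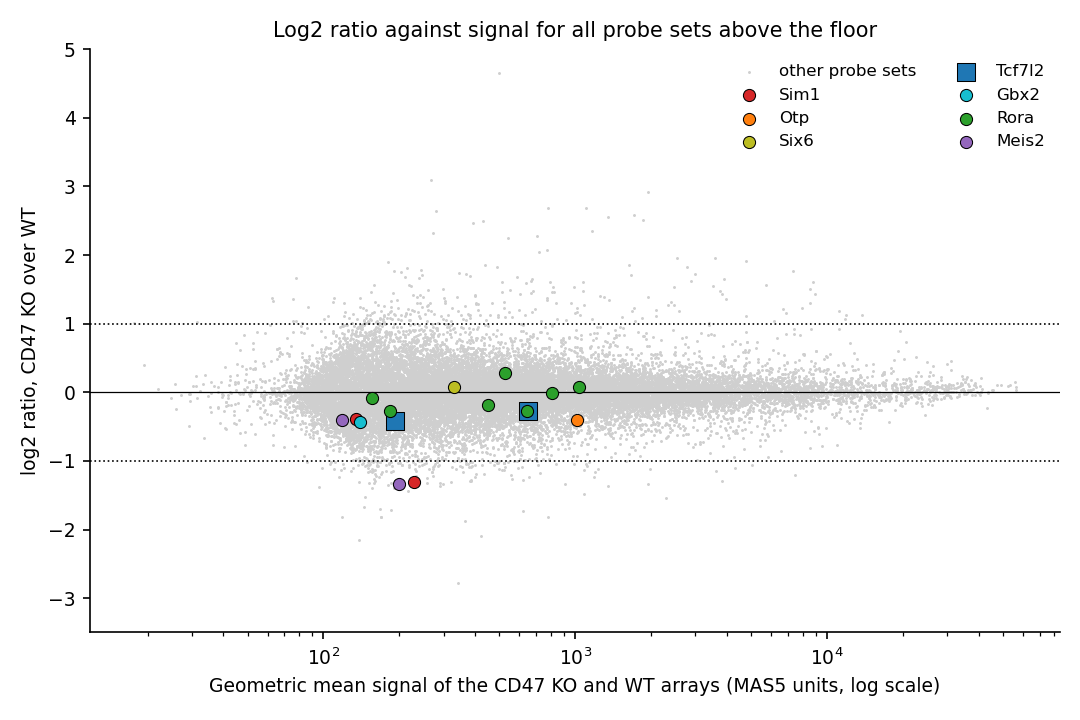
Log2 ratio of CD47 KO over WT (vertical) against the geometric mean signal of both arrays (horizontal, log scale) for the 23846 measured probe sets (grey) and the 16 of the 7 measured factors (coloured; squares, Tcf7l2); signals under the floor were set to it and dotted lines mark 2-fold. Of the 16, those of Sim1 and Meis2 with the highest signal lie below the lower dotted line, both on the left among dim probe sets, where the grey cloud is widest.

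The promoters of Sim1 and Meis2 are shown because these were the 2 genes with a probe set over 2-fold lower; the signals say nothing of what acts on them. All 9 genes matched the RefSeq promoter table of build GRCm38.p6, with 10 promoters. The sequences are the 250 bases before the annotated start, 5′ to 3′, on chr10:50895401-50895650 (plus strand) for Sim1 and chr2:116064620-116064869 (minus strand) for Meis2. Capitals mark matches, on either strand, to the TATA box TATAAA or the CCAAT box, the motifs among those searched that were found in them. The searched motifs do not overlap in these 2 promoters.
Sim1: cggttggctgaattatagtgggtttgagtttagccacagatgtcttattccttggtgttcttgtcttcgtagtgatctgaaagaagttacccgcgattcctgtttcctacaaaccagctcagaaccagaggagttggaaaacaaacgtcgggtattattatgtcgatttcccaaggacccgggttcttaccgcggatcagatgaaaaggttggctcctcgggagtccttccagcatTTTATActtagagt
Meis2: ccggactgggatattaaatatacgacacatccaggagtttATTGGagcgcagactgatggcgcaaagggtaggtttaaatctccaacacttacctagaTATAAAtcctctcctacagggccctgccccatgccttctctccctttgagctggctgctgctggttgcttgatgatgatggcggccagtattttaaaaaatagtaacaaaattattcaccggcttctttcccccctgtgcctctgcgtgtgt
Both hold TATAAA, which 12.4% of the 32851 promoters of that length hold, and Meis2 also holds CCAAT, as do 33.8%. The palindrome TAATTA, to which many homeodomain proteins bind, is in 4.84% of all promoters and in 0 of the 10. The nuclear receptor half-site AGGTCA, to which RORα binds, is in 14% of all and in 0 of the 10. The core TGACAG, to which MEIS proteins bind, is in 15.9% of all and was found for Lhx9 and Six6. The GC box GGGCGG was in 5 of the 10, beside 32.7% of all. A match of letters is not a binding site, and the absence of one says only that these letters are not in the window.

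Other transcription factors of the same regions and of further regions were compared from lists, each gene by its brightest probe set. Besides the 9 genes, 112 region factors of the fore-, mid- and hindbrain, spinal cord and eye were on the array. Of these, 60 were under the floor in both arrays. Among the 52 measured, 37 (71.2%) had a log2 ratio below 0, beside 53.2% of all measured genes, with a median of -0.11, and 2 (3.85%) were over 2-fold lower, beside 0.818%. None was over 2-fold higher. Of the 37, 7 passed the floor in WT only, Isl1 of the 2 among them, and so could not have had a ratio above 0; of the 15 above 0, 1 passed in CD47 KO only.

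In the hypothalamus list 10 of 28 genes were measured, 7 of them below 0, with a median of -0.22. Of the 7, Isl1 and Tbx3 passed the floor in WT only and so could not have had a ratio above 0. Isl1, a LIM-homeodomain factor of arcuate and striatal neurons, had 95.9 in CD47 KO, under the floor, and 224.4 in WT, at least 2.11-fold lower. Its other measured probe set also gave only a bound, with 46.5 in CD47 KO, under the floor, and 128.6 in WT. Pou3f2, which acts after Sim1 in the mouse paraventricular nucleus, had 106.7 in CD47 KO and 182.3 in WT, 1.71-fold lower, on a probe set just above the floor, and its other measured probe set gave only a bound, with 85.8 in CD47 KO, under the floor, and 109.7 in WT. Vax1, a factor of the optic stalk that is needed for the optic chiasm to form, went the other way, with 361.3 in CD47 KO and 214.8 in WT, 1.68-fold higher. Its other measured probe set gave only a bound, with 116.0 in CD47 KO and 17.05 in WT, under the floor. Arnt2, the partner with which Sim1 binds DNA, had 3855 in CD47 KO and 4139 in WT (log2 ratio -0.10), and Peg3, an imprinted zinc finger gene, 3582 in CD47 KO and 5409 in WT (log2 ratio -0.59). Rax, Lhx1, Nr5a1 and Hmx2 were among the 18 genes under the floor.

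In the thalamus and epithalamus list 16 of 23 were measured, 10 below 0, with a median of -0.07. Of the 10, Irx2 passed the floor in WT only and so could not have had a ratio above 0. Nr4a2, an orphan nuclear receptor known from midbrain dopamine neurons that is also an early response gene, had 295.6 in CD47 KO and 615.4 in WT, 2.08-fold lower, but its 4 measured probe sets ranged from -1.15 to 0.23. Foxp2, a forkhead factor of thalamic and striatal neurons, had 801.9 in CD47 KO and 1139 in WT, 1.42-fold lower, while 1 of its 5 measured probe sets had a log2 ratio of 0.19. The brightest, Zic1, a zinc finger factor that is also known from meninges, had 8487 in CD47 KO and 8843 in WT (log2 ratio -0.06). Tal1, known from GABA neurons of the midbrain and from blood cell precursors, was at least 1.46-fold higher, with 154.8 in CD47 KO and 80.4 in WT, under the floor.

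The telencephalon list had 20 of 28 genes measured, with a median of -0.12 and none over 2-fold in either direction. Below 0 were 16 of them, beside 53.2% of all measured genes. Of the 16, Emx1, Neurod1 and Neurod2 passed the floor in WT only and so could not have had a ratio above 0. Emx2, a homeodomain factor of the cortex and hippocampus, had 175.6 in CD47 KO and 343.1 in WT, 1.95-fold lower. Dlx2, a factor of GABA neurons, had 116.2 in CD47 KO and 200.8 in WT, 1.73-fold lower. Fezf2, a factor of deep-layer cortical neurons, went the other way, with 210.8 in CD47 KO and 113.5 in WT, 1.86-fold higher. The CD47 KO signal of Dlx2 and the WT signal of Fezf2 were just above the floor. The brightest, Nr2f1, an orphan nuclear receptor, had 2642 in CD47 KO and 2626 in WT. Tbr1, Eomes, Neurod6 and Lhx6 were under the floor in both arrays.

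Of 23 factors of the midbrain, hindbrain and spinal cord on the array 20 were under the floor, among them Phox2a, Tlx3, Atoh1 and Foxa2. The 3 measured were En2 (log2 ratio 0.21), Pax5 (0.02) and, as the brightest, Hoxa5 (-0.53), the last by a probe set marked for shared sequence. Of 10 factors of the optic stalk and retina 3 were measured and all 3 had ratios below 0: Foxd1, a factor of the ventrotemporal retina and the chiasm region and the brightest of them, had 1399 in CD47 KO and 1645 in WT (log2 ratio -0.23), Isl2 had a ratio of -0.26, and Vsx1 had 102.9 in CD47 KO, under the floor, and 107.1 in WT, just above it. Vsx1 passed the floor in WT only and so could not have had a ratio above 0. Vax1 and Six6, named above for the optic stalk and the retina, were counted outside this list, with log2 ratios of 0.75 and 0.08. Crx, Nrl and Atoh7, factors of photoreceptors and retinal progenitors, were under the floor.

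Paralogues of the 9 genes had ratios on both sides of 0. Of 18 on the array 13 were measured, with 6 below 0 and 7 above 0 and a median of 0.10. Meis1, the closest relative of Meis2, had 284.8 in CD47 KO and 264.2 in WT (log2 ratio 0.11), with 0.13 on its second measured probe set. Tcf7l1, which also acts with β-catenin, was 1.67-fold higher by its brighter probe set, with 722.5 in CD47 KO and 433.7 in WT, whereas its other probe set had a log2 ratio of -0.08. Rorb, the relative of Rora in cortex and retina, had 347.9 in CD47 KO and 381.4 in WT (log2 ratio -0.13), and its 3 probe sets ranged from -0.13 to 0.30. Nkx2-9 had 517.4 in CD47 KO and 329.1 in WT, 1.57-fold higher, and Nkx2-6 had 113.8 in CD47 KO and 157.1 in WT, 1.38-fold lower. Six3, the paralogue of Six6 and the brightest of the list, had 975.2 in CD47 KO and 870.9 in WT (log2 ratio 0.16). The difference between the 9 genes and their paralogues was not tested.

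The peptide genes whose neurons need Sim1 or Otp in mouse were set beside them. Of the 5 on the array 4 were measured, and all 4 had log2 ratios below 0, with a median of -0.58 and none over 2-fold lower. Oxt (oxytocin) had 4222 in CD47 KO and 8114 in WT, 1.92-fold lower. Sst (somatostatin), which many neurons outside the hypothalamus also make, had 208.1 in CD47 KO and 361.3 in WT, 1.74-fold lower. Trh (thyrotropin-releasing hormone) had 215.2 in CD47 KO and 277.7 in WT, 1.29-fold lower. Avp (vasopressin), the brightest, had 22364 in CD47 KO and 24982 in WT (log2 ratio -0.16). Crh was under the floor in both arrays.

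Genes with a known link to Tcf7l2 and Rora in other cell types gave ratios on both sides of 0. Of 13 measured genes of newly formed oligodendrocytes, the glial cells in which Tcf7l2 is found, 12 were above 0 with a median of 0.38, opposite in sign to both measured probe sets of Tcf7l2. Ust was 1.71-fold higher by its brighter probe set whereas the other gave a log2 ratio of -0.15. Itpr2 was 1.39-fold higher by its brightest, but its other 2 measured probe sets had log2 ratios of -0.22 and -0.24. Gpr17 was 1.38-fold and the brightest of the list, Bcas1, 1.01-fold higher, and Bmp4 had a log2 ratio of -0.32. The 9 measured Wnt response genes had a median of -0.01, with 5 below 0 and 4 above 0. Axin2, the most general target of the pathway, had 380.1 in CD47 KO and 382.6 in WT, and the brightest, Ccnd1, which encodes cyclin D1, had 5358 in CD47 KO and 3281 in WT, 1.63-fold higher. Myc had a log2 ratio of 0.59 and Znrf3 one of -0.42. Of 7 measured clock genes that carry ROR elements 5 were below 0, with a median of -0.27 and values from -0.40 for Nr1d1 to 0.38 for Clock. Arntl, the best known clock target of RORα, had 310.6 in CD47 KO and 324.6 in WT, Cry1 had a log2 ratio of -0.36, and the brightest, Nr1d2, had 7480 in CD47 KO and 9024 in WT (log2 ratio -0.27).

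**Figure D3:**
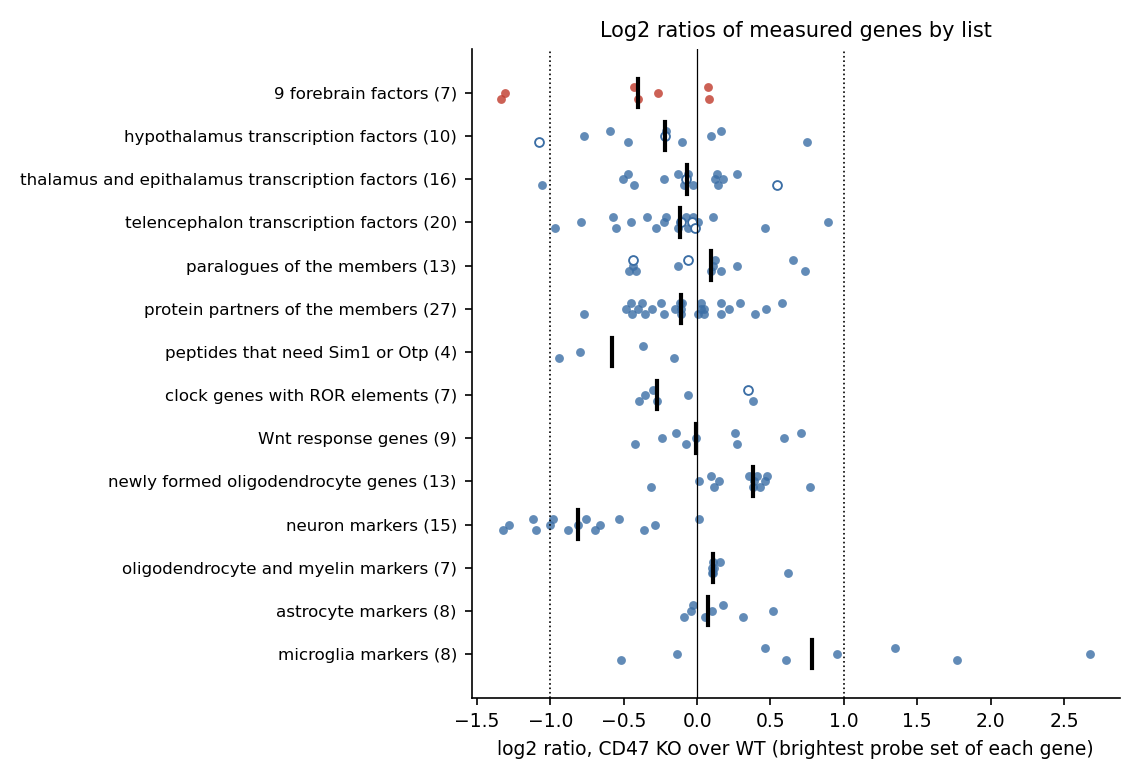
Measured genes of each list (number in brackets) by their log2 ratio, CD47 KO over WT, on the horizontal axis, each by its brightest probe set; open circles are bounds with 1 array at the floor, black bars are medians and dotted lines mark 2-fold. The 9 factors (red, 7 measured) have a median of -0.40, the lists of hypothalamus, thalamus and telencephalon factors have medians between -0.22 and -0.07, and the neuron markers at -0.81.

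By their brightest probe sets, Sim1 and Meis2 had ratios lower than the median of the neuron markers, whereas Otp, Gbx2 and Tcf7l2 lay between that median and 0 and Six6 and Rora above 0. The other measured probe set of Sim1, at -0.39, also lay between that median and 0. That of Meis2 gave only a bound of -0.40, and its brightest probe set is marked for shared sequence. The neuron markers themselves ranged from -1.32 for Nefm to 0.01 for Tubb3, with 14 of 15 below 0, beside 53.2% of all measured genes. Over 2-fold lower were 5, beside 0.818% of all: Nefm, Slc17a6, Gad1, Gad2 and Rbfox3, the last at only 2.001-fold. Other measured probe sets of 3 of them were under 2-fold lower, with log2 ratios of -0.43 for Gad1, -0.59 for Gad2 and -0.15 for Rbfox3. The brightest, Map2, had 4188 in CD47 KO and 5112 in WT (log2 ratio -0.29). The ratios of the 7 factors spanned from -1.34 for Meis2 to 0.08 for Six6 and Rora, about the same range. The difference between the factors and the neuron markers was not tested.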

How the data were processed

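The authors pooled RNA within each genotype, labelled it for Affymetrix GeneChip arrays and scanned 1 array each. As deposited, each probe set has a MAS5 intensity on a linear scale, scaled to a 2% trimmed mean of 500.003 in both arrays; the MAS5 version was not given in these sources. Signals near background are noisy, and detection calls were not used.

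The 64 control probe sets counted for the floor (106.4), for the trimmed mean and for the alternative scalings of the arrays. They were left out of all ratios and counts. Signals under the floor were raised to it, which shortens the ratios of dim genes. Where this applied to 1 array, the ratio is a bound. Gene symbols came from the platform annotation, updated by gene identifier for 34741 of 34945 probe sets with 1 symbol; 932 with several symbols and 9160 with none stayed out of gene counts. A gene was read from its probe set of highest mean log2 signal, and differences over 2-fold, the size the study used, were counted. Because 1 array was made per genotype, neither tests nor errors can be given, and precision is limited by that number. Signals of different probe sets are not comparable as RNA levels: the brightest of a list is a naming rule, and summed signals serve only to compare the 2 arrays. With 2 arrays no genes of like pattern were sought. The 9 genes and all lists were chosen with earlier results of these data known. Named genes are all probe sets of the 9 and, from each list, the 3 with the largest ratios, the brightest, and those over 2-fold where 5 or fewer; further names were chosen after their values were seen. Alternatives were other floors (40th or 60th percentile, none), quantile normalisation, median centring, loess, omission of probe sets marked for shared sequence, and medians over a gene's probe sets. The steps were tested on simulated data, with known changes only in probe sets well above the floor. Changes in dim probe sets such as those of Sim1 and Meis2 were not covered. Python 3.11.15, pandas 2.3.3 and statsmodels 0.14.6 were used.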

Additional observations from a re-analysis of the deposited data

How the results depend on the processing

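The count of probe sets of the 9 genes over 2-fold lower was 2 at the 50th percentile floor and stayed at 2 when the floor was lowered to the 40th percentile and under quantile normalisation, centring on the median and loess. It was 0 at the 60th, 4 with no floor and 1 without probe sets marked for shared sequence, and over all measured probe sets the share was 0.483%, 10.3% and 0.695% under these settings. The count over 2-fold higher was 0 under all settings but no floor, where it was 1, the dim probe set of Otp, beside 9.96% of all probe sets. The 2 further probe sets over 2-fold lower with no floor were a dim one each of Tcf7l2 and Lhx9. The median log2 ratio of the measured genes ranged from -0.40 to -0.34 over the alternatives. At the 60th percentile the brightest probe sets of Sim1 (-0.94) and Meis2 (-0.76) had only a bound, and of the 12 probe sets still measured the 10 others moved by less than 0.36. Among these 10, 1429427_s_at of Tcf7l2 (-0.24) and 1458129_at of Rora (-0.10) were then bounds too. A single probe set, 1455165_at of Rora, changed sign, to 0.02 on the log2 scale, when the arrays were centred on their medians. Sim1, Gbx2 and Meis2 have CD47 KO signals near the floor, and how far they are lower is limited by that. No paired analysis was possible because each genotype has 1 array, and for the same reason no replicate could be left out.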

Other observations

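A list of protein partners also took in proteins that act through a cofactor or with a relative of the 9 factors. Of its 31 genes on the array 27 were measured, 15 below 0 and 12 above 0. Their median log2 ratio was -0.11, with none over 2-fold in either direction. Lmo2, a LIM-only protein that binds the LIM cofactor Ldb1, had 1237 in CD47 KO and 828 in WT, 1.49-fold higher. Ldb1 itself had 365.2 in CD47 KO and 352.9 in WT (log2 ratio 0.05). Bcl9, a β-catenin cofactor, had 154.6 in CD47 KO and 215.9 in WT by its brighter probe set (log2 ratio -0.48), while its other measured probe set, with the WT signal under the floor, had a bound of 0.67. The brightest of the list, Ctnnb1, which encodes β-catenin, had 22823 in CD47 KO and 20340 in WT (log2 ratio 0.17). Eya1, a cofactor of Six3 and its relatives, had a log2 ratio of -0.44, and its relative Eya4 one of 0.47, with -0.05 on the other measured probe set of Eya4. Among markers of other cells, 6 of 7 measured endothelial genes were below 0 with a median of -0.26, and Kdr, a VEGF receptor, was 1.72-fold lower. Flt1, another VEGF receptor, had a log2 ratio of -0.41 and its 4 measured probe sets ranged from -0.63 to 0.07, the tight junction gene Cldn5 had -0.40, and the brightest, Itm2a, -0.26. Of 8 microglial genes 6 were above 0, with a median of 0.78, and 3 were over 2-fold higher: Trem2, with 2795 in CD47 KO and 436.4 in WT, its signalling partner Tyrobp, with 13486 in CD47 KO and 3950 in WT, and the fractalkine receptor Cx3cr1, with 2180 in CD47 KO and 856.2 in WT. Over all measured genes 1.21% were over 2-fold higher. The brightest of the microglial genes, the receptor gene Csf1r, had a log2 ratio of 0.46. The 2 microglial genes below 0 were Tmem119, with 841.8 in CD47 KO and 1205 in WT (log2 ratio -0.52), and P2ry12 (log2 ratio -0.14). Of the astrocyte markers, Gfap had 27063 in CD47 KO and 18931 in WT (log2 ratio 0.52), the water channel gene Aqp4 had a log2 ratio of 0.31, the glutamate transporter gene Slc1a3 0.17, and the brightest, S100b, -0.04. Of the myelin markers, Opalin had 6071 in CD47 KO and 3946 in WT (log2 ratio 0.62), the brightest, Mobp, had a log2 ratio of 0.15, with its 5 measured probe sets from -0.22 to 0.15, and Mal had 0.12. Retina and eye markers were on the array for 7 genes, of which 5, Sag and Rpe65 among them, were under the floor; Rom1, of photoreceptors, had 300.2 in CD47 KO and 161 in WT, and the brightest, Rlbp1, had a log2 ratio of 0.18.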
